A study of Homo sapiens with 4 samples.

Results

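Anaplastic thyroid cancer (ATC) is an undifferentiated tumour of thyroid follicular origin. SW1736 and 8505C are established human cell lines derived from it, and the untreated (wt) cells of both lines were compared here by their mRNA. The members of the comparison were the gene names whose FPKM was above 0.5 in at least 1 of the 2 wt libraries, 13457 of the 26485 names in the tables. FPKM is the number of aligned fragments scaled to the length of the gene and the depth of the library, and the rows that share a name were summed. The series holds 4 libraries, 1 for each of SW1736 wt, 8505C wt, SW1736-PTX and 8505C-PTX. Both wt lines were sensitive to paclitaxel, a taxane that stabilizes microtubules, and received none of it. The PTX cells came from 6 months of selection with paclitaxel raised from 1 nM to 1.5 µM, and were kept in 1.5 µM. All cells grew in the same serum-containing medium. With 1 library per line, the spread between cultures is unknown, no difference below has a test, and each value describes these libraries.

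Follicular cells are made and maintained by a set of transcription factors, PAX8, NKX2-1, FOXE1 and HHEX, which act together to switch on thyroglobulin, the TSH receptor and the iodide transporter. Anaplastic tumours are known for the loss of these products and for a shift from epithelial towards mesenchymal gene expression, with much secreted matrix and protease.

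Library size, estimated by dividing the coverage by the FPKM, came to 48.9 M reads for SW1736 wt and 43.5 M for 8505C wt. At that depth 3 reads on a transcript of 2 kb amount to an FPKM of 0.0307 in SW1736 wt and 0.0344 in 8505C wt, a floor that covers counting error only. None of the 26 housekeeping genes was listed at 0, their lowest FPKM in either wt library was 9.07, and none differed past the limit. Before the results, a property of the PTX libraries has to be given. Of the 60 genes detected in 8505C wt and near 0 in SW1736 wt (defined below), 54 lay nearer to 8505C wt than to SW1736 wt in SW1736-PTX, and 36 of the 43 genes detected in SW1736 wt alone did so too. Over all genes that differed the shares were smaller, 856 of the 1040 genes higher in 8505C wt (82.3%) and 749 of the 1335 genes higher in SW1736 wt (56.1%). For 8505C-PTX, the numbers were 58 of 60 and 37 of 43, and the shares 84.1% and 57.8%. CBFB, the partner subunit of the RUNX factors, had an FPKM of 23.1 in SW1736 wt and was listed at 0 in 8505C wt, with 0.0393 in SW1736-PTX and 0 in 8505C-PTX. CBFB was picked after its values were seen. For most genes detected in 1 wt line, CBFB among them, the library labelled SW1736-PTX stood with the 8505C libraries and away from SW1736 wt. Some genes went the other way, and 2 picked likewise are TIE1 and FBN2, both listed at 0 in SW1736 wt. They had 0.135 and 0.0337 in SW1736-PTX, and 8.25 and 3.94 in 8505C-PTX. Whether the cells of the SW1736-PTX library came from SW1736 was not tested. The comparison of the wt lines uses the wt libraries alone, and PTX values are given beside it only as further levels.

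A gene was counted as different when log2((SW1736 wt + 0.1)/(8505C wt + 0.1)) on the FPKM scale was above 1.5 or below -1.5, a 2.83-fold ratio for well-expressed genes. The pseudocount of 0.1 shrinks the ratio of genes with low FPKM. By this limit 1335 genes were higher in SW1736 wt (9.92% of the genes compared) and 1040 were higher in 8505C wt (7.73%), 2375 together (17.6%). The median log2 fold change was 0.08, and 71.5% of the genes differed by less than 1 on the log2 scale. Differences were often of the on or off kind. A log2 fold change beyond 3 was found for 511 genes higher in SW1736 wt and for 524 higher in 8505C wt, and of all the differing genes 233 were listed at 0 in 8505C wt and 355 were listed at 0 in SW1736 wt. Since the cells are measured in bulk, fewer cells that express a gene and less RNA per cell cannot be told apart.

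**Figure D1:**
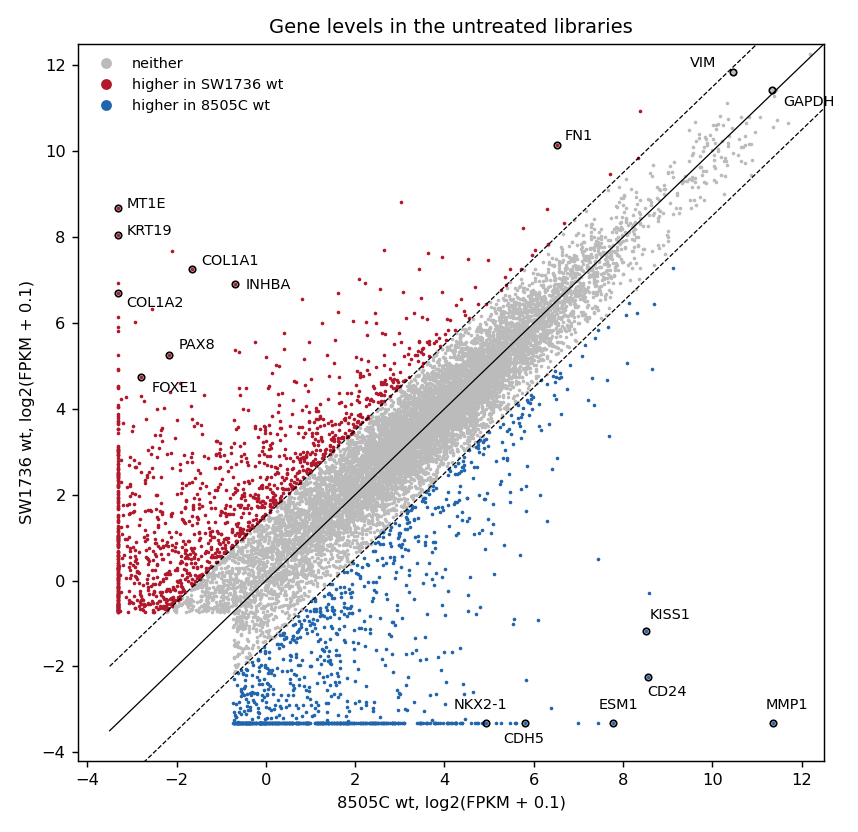
Each point is a gene compared, with its level in 8505C wt on the x axis and in SW1736 wt on the y axis, both as log2(FPKM + 0.1), from 1 library per line. Dashed lines mark the limit of 1.5 on the log2 scale, red points were higher in SW1736 wt and blue points in 8505C wt, and the columns of points at the left and lower edges are genes listed at 0 in one library, such as KRT19 (266 against 0) and MMP1 (0 against 2629.6).

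Secreted, surface and intracellular proteins were all among the largest differences. Toward SW1736 wt, the 10 largest log2 fold changes belonged to MT1E, KRT19, CRIP1, COL1A2, CD70, MT1L, PEG10, CDH13, CDCA7L and COL1A1. MT1E, a metal-binding metallothionein, had an FPKM of 409 in SW1736 wt and was listed at 0 in 8505C wt. CD70, the ligand of the lymphocyte receptor CD27, had 203 in SW1736 wt and 0.134 in 8505C wt. CDH13, a cadherin held to the membrane by a lipid anchor, had 56.5 and 0. Toward 8505C wt they belonged to MMP1, ESM1, CD24, EPB41L3, SFRP1, KISS1, SLC43A3, CDH5, LCE2A and GNGT2. CD24, a small mucin-like surface glycoprotein, had an FPKM of 0.112 in SW1736 wt and 375 in 8505C wt. KISS1, a secreted peptide first known as a metastasis suppressor, had 0.340 in SW1736 wt and 366 in 8505C wt. ESM1, a proteoglycan better known from endothelium, was listed at 0 in SW1736 wt and had 219.7 in 8505C wt.

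Among the gene lists, differences gathered in lineage and matrix genes and were fewest among metabolic genes. Of the lineage genes compared, 37 of 132 were higher in SW1736 wt (28.0%) and 42 were higher in 8505C wt (31.8%). Of 144 matrix genes, 43 (29.9%) and 33 (22.9%) were higher in SW1736 wt and 8505C wt. Of 348 signalling genes the counts were 49 (14.1%) and 58 (16.7%), and of 285 metabolic genes they were 39 (13.7%) and 17 (5.96%). These shares stand beside 9.92% and 7.73% over all genes compared. The lists hold genes with narrow expression by choice, and they were not compared with other lists of like expression.

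**Figure D2:**
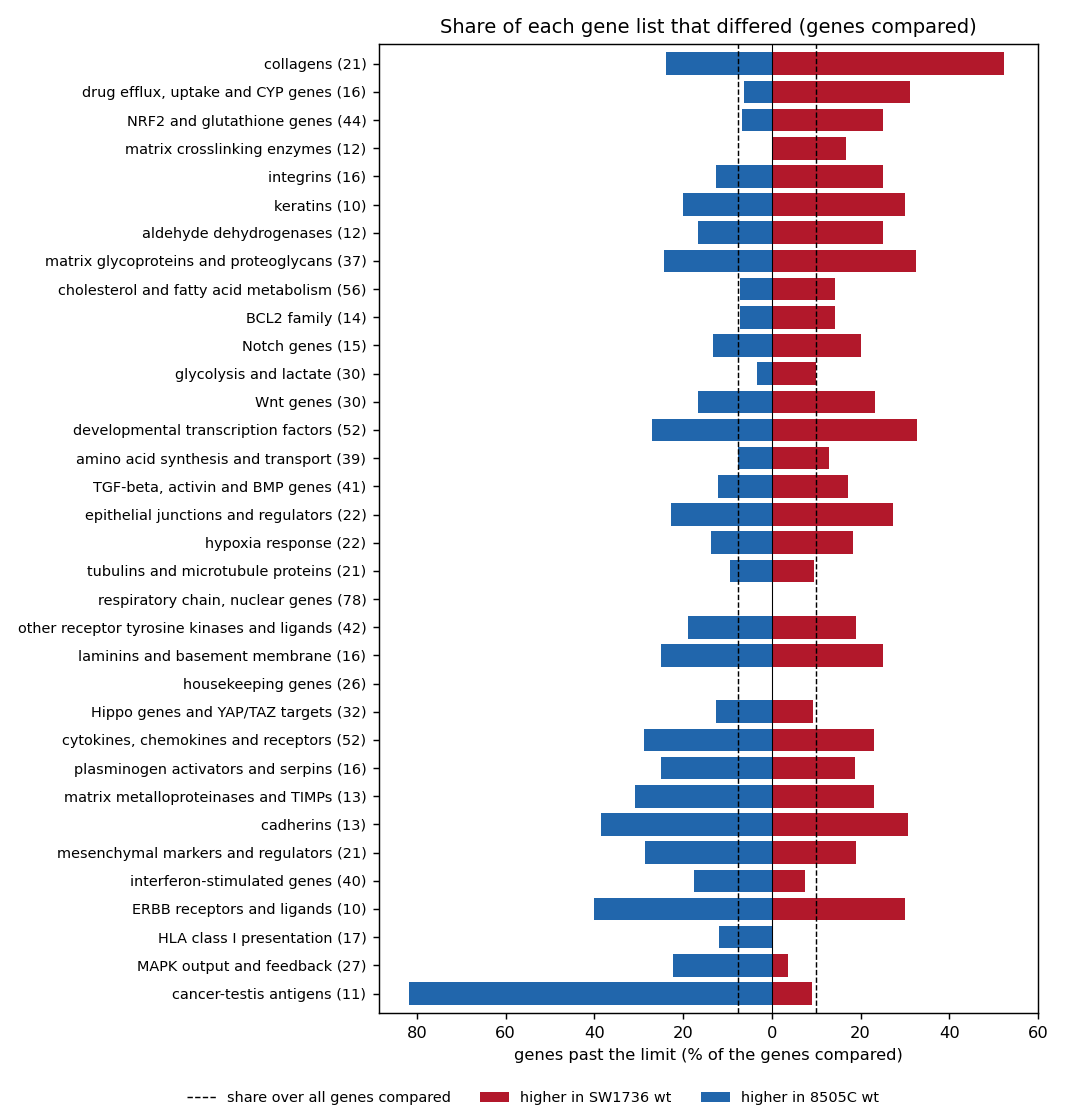
For lists with at least 10 genes compared (number in brackets, the cell-cycle list left out), bars give the percent of genes higher in SW1736 wt (right, red) and higher in 8505C wt (left, blue), with dashed lines at the shares over all genes, 9.92% and 7.73%. Collagens reach furthest to the SW1736 wt side (52.4%), cancer-testis antigens to the 8505C wt side (81.8%), and the respiratory chain and housekeeping lists have no bar.

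Thyroid identity was split between the lines. PAX8, the paired-box factor of follicular cells, had an FPKM of 38.2 in SW1736 wt and 0.123 in 8505C wt. FOXE1, the forkhead factor of thyroid development, had 26.6 in SW1736 wt and 0.0443 in 8505C wt. NKX2-1, the homeobox factor shared by thyroid and lung, went the other way, with 0 in SW1736 wt and 30.5 in 8505C wt. Each line thus held a part of the set and lacked the rest. HHEX, the homeobox factor that completes the set, was the one they shared, with 12.4 in SW1736 wt and 5.92 in 8505C wt, below the limit. Of the products of the differentiated cell, TG, TSHR and SLC5A5 were listed at 0 in both wt libraries. Of the 20 genes of the list, 7 were compared, 5 were higher in SW1736 wt and 1 in 8505C wt. These were 71.4% and 14.3% of the 7, beside 9.92% and 7.73% over all genes. Among the others higher in SW1736 wt were DIO2, which activates thyroxine (3.34 against 0.0288), and GLIS3, a zinc finger factor needed for hormone synthesis (5.92 against 1.40). The labelled origin therefore rests in each wt library on transcription factors, and not on TG, TSHR or SLC5A5. In the PTX libraries PAX8 had 0.206 in SW1736-PTX and 0.146 in 8505C-PTX, FOXE1 had 0.511 and 0.178, and NKX2-1 had 36.3 and 39.0.

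The stretches before the start sites of the factors that split the lines, and of the most abundant gene detected in each wt line alone that has an entry in the promoter table (CRIP1 for SW1736 and ESM1 for 8505C), are shown because these genes were detected in one line and at or near 0 in the other. Each is the 250 bases before the start site in RefSeq on GRCh38.p14, 5′ to 3′ on the strand of the gene, with matches on either strand to the GC box motif, spelled GGGCGG, and to the TATA box motif, spelled TATAAA, in capitals. PAX8 lies at chr2:113278922-113279171 on the minus strand, FOXE1 at chr9:97852976-97853225 on the plus strand and NKX2-1 at chr14:36520233-36520482 on the minus strand. CRIP1 lies at chr14:105486636-105486885 on the plus strand and ESM1 at chr5:54985594-54985843 on the minus strand.
PAX8: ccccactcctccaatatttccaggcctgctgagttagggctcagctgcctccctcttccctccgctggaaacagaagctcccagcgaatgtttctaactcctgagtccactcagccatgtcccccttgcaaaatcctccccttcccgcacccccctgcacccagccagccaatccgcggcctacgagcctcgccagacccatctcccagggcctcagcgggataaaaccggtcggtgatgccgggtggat
FOXE1: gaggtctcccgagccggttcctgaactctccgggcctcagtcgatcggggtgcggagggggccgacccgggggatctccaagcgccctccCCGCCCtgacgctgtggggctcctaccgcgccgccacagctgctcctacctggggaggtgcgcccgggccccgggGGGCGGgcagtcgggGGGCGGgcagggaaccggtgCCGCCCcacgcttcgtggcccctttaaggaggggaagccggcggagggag
NKX2-1: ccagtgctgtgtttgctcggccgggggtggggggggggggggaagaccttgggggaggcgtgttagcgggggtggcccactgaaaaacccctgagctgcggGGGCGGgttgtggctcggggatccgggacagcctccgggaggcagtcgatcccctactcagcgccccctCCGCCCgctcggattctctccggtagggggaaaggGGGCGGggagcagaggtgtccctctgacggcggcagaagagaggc
CRIP1: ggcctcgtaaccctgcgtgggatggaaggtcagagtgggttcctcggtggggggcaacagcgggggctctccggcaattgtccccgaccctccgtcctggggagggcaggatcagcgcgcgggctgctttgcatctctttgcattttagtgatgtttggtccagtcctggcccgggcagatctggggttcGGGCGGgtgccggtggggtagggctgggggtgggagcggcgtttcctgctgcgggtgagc
ESM1: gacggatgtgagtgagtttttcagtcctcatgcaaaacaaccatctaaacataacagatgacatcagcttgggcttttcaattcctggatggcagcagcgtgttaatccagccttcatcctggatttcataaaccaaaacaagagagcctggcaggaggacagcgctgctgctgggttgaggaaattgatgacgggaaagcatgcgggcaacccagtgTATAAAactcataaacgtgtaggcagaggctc
The FOXE1 stretch had 75.6% G and C with 26 CpG pairs and 4 GC boxes, the NKX2-1 stretch 70.8% with 18 pairs and 3 boxes, the CRIP1 stretch 66.8% with 17 pairs and 1 box, and the PAX8 stretch 61.6% with 11 pairs and no GC box. The ESM1 stretch had 47.6% G and C, 6 CpG pairs and the only TATA box of the set. Over the 35116 entries of the table, 42.6% held a GC box and 10.7% a TATA box in the same 250 bases. A match is a string of letters and not a measured binding site.

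Across all genes, those that differed had fewer CpG-rich stretches before their start. In the 250 bases upstream of the gene start given in the tables, read from hg38, 78.4% of the 11075 genes that did not differ had an observed over expected CpG ratio above 0.6. The share was 56.4% for the genes higher in SW1736 wt and 55.2% for those higher in 8505C wt. A TATA box was present before 5.53% of the genes that did not differ, 6.97% of those higher in SW1736 wt and 9.54% of those higher in 8505C wt. Among the genes detected in 1 wt line alone it was present before 1 of 43 for SW1736 and 11 of 60 for 8505C. The start in the tables is the outermost start of the gene, which need not be the one used in these cells, and the sets were not matched for level.

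Both lines lacked the core of the epithelial junction programme while keeping simple keratins. E-cadherin (CDH1) had an FPKM of 0.0277 in SW1736 wt and 0.0108 in 8505C wt, and EPCAM had 0 and 0.0806. ESRP1 and OVOL1, regulators of the epithelial state, were listed at 0 in both wt libraries, and GRHL2 had 0 and 0.0117. Claudin-4 (CLDN4) was at 0.368 and 0.459. The keratins KRT8 and KRT18, which pair in simple epithelia, stayed abundant, with 331 and 257 in SW1736 wt and 439.5 and 511 in 8505C wt. KRT7 had 913 in SW1736 wt and 321 in 8505C wt, just past the limit. KRT19, the smallest type I keratin, was the keratin that set the lines apart most, with 266 in SW1736 wt and 0 in 8505C wt. KRT14 and KRT17, keratins of basal and stressed epidermis, were listed at 0 in SW1736 wt and had 16.6 and 2.21 in 8505C wt. Of 22 junction genes and regulators compared, 6 were higher in SW1736 wt and 5 in 8505C wt, 50.0% in all beside 17.6% over all genes. Of the desmosomal genes of the list, DSG2 (9.57 against 29.6), DSC2 (0 against 2.76) and JUP (9.56 against 27.8) were higher in 8505C wt. DSP, PKP2 and PKP3 did not differ past the limit.

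Mesenchymal genes were present in both lines, with different transcription factors. Vimentin (VIM) had an FPKM of 3684 in SW1736 wt and 1417 in 8505C wt, and N-cadherin (CDH2) had 36.8 and 35.6, neither past the limit. ZEB1, a repressor of E-cadherin, was alike at 9.16 and 10.1. SNAI2, the Slug factor, was higher in SW1736 wt with 4.72 against 0.202, and SNAI1 had 8.44 against 2.98, below the limit. ZEB2 and TWIST1 were higher in 8505C wt, with 0.386 against 7.30 and 0 against 6.37. The forkhead factor FOXC2 was listed at 0 in SW1736 wt and had 25.7 in 8505C wt. The contractile light chain MYL9 (199 against 12.3) and CDH11, the cadherin of osteoblasts and fibroblasts (16.3 against 0), were higher in SW1736 wt. The TGF-beta co-receptor ENG was higher in 8505C wt, with 97.2 against 14.6. Of the 21 genes of the list that were compared, 4 were higher in SW1736 wt and 6 in 8505C wt. That was 47.6% in all, beside 17.6% over all genes.

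**Figure D3:**
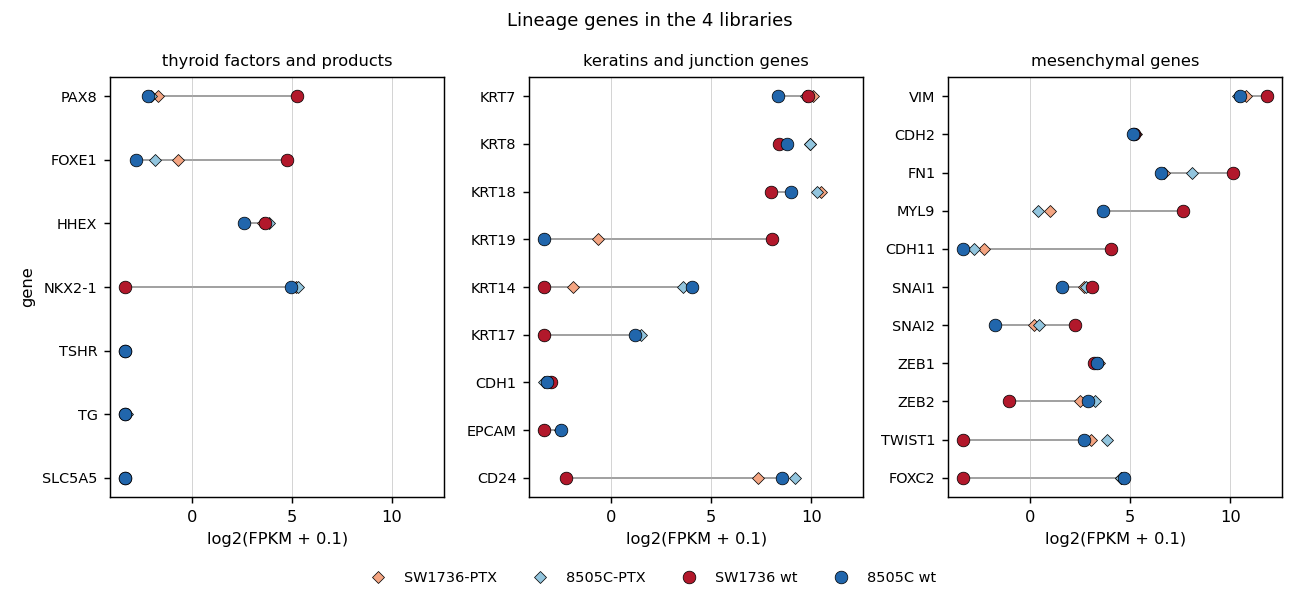
Points give log2(FPKM + 0.1) in each of the 4 libraries for lineage genes, circles for wt and diamonds for PTX, with a grey line joining the wt libraries. PAX8, FOXE1 and KRT19 lie at the right for SW1736 wt alone, NKX2-1, TWIST1 and FOXC2 lie near the lower end for SW1736 wt alone, and TG, TSHR and SLC5A5 lie at or near the lower end in all libraries.

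Developmental transcription factors formed a different set in each line. Of 52 compared, 17 were higher in SW1736 wt and 14 in 8505C wt, 59.6% in all beside 17.6% over all genes. Among the GATA factors, GATA3 had an FPKM of 11.7 in SW1736 wt and 0.0978 in 8505C wt, while GATA2 had 0 and 10.9. RUNX3 was listed at 0 in SW1736 wt and had 10.9 in 8505C wt. SOX9, a factor of cartilage and progenitor cells, had 45.5 in SW1736 wt and 7.16 in 8505C wt, and the forkhead factors FOXD1 (23.3 against 1.74) and FOXQ1 (7.85 against 0) were also higher there. KLF5 had 6.79 in SW1736 wt and 35.3 in 8505C wt. Of the HOX genes, which pattern the body axis, 9 of 39 were compared. The 1 higher in SW1736 wt was HOXA11 (1.11 against 0), and 5 were higher in 8505C wt, among them HOXB9 (0 against 2.34) and HOXC10 (0 against 1.56). These were 11.1% and 55.6%, beside 9.92% and 7.73% over all genes.

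Cancer-testis antigens, germ-line genes that tumours re-express, were mostly on the 8505C side. Of 11 compared, 9 were higher in 8505C wt (81.8%) and 1 in SW1736 wt (9.09%), beside 7.73% and 9.92% over all genes. Some of the 9 were low in 8505C wt too, such as SSX1 (0.0394 against 0.502), MAGEB2 (0 against 0.870) and MAGEC2 (0.0273 against 0.943). MAGEA3 had an FPKM of 4.25 in SW1736 wt and 52.3 in 8505C wt, MAGEA12 had 0.552 and 27.8, and MAGEA1 had 0 and 14.5. MAGEA11 was the exception, with 6.05 in SW1736 wt and 0.382 in 8505C wt. Several of these genes are near-identical copies whose reads can be shared, so their separate levels are uncertain. Summed over the 13 MAGEA genes, the FPKM was 27.1 in SW1736 wt and 132.6 in 8505C wt, a 4.89-fold difference.

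Of the markers of other cell types, the defining ones were mostly at or near 0, and single members of each list were not. Of 15 immune markers, 10 were listed at 0 in SW1736 wt and 12 in 8505C wt, and PTPRC, CD3E and TYROBP were at 0.0197 or listed at 0 in both. CD14 had an FPKM of 0.894 in SW1736 wt and 0.576 in 8505C wt. The lysosomal protein CD68 was higher in 8505C wt with 21.7 against 5.84, and made up most of the summed level of 22.3 there and 6.90 in SW1736 wt. Of 10 markers of thyroid C cells, 7 were listed at 0 in each, CALCA and CHGA among them. The granule protein SCG2 was higher in SW1736 wt with 22.9 against 0.950, and the list summed to 23.5 and 1.10. Of the melanocyte markers, MLANA, PMEL and SOX10 were at or below 0.153, MITF had 5.33 in SW1736 wt and 5.71 in 8505C wt, and the pigment enzyme TYRP1 was higher in 8505C wt with 1.70 against 0.0827. The 8 melanocyte markers summed to 5.62 and 7.49. The 11 fibroblast markers summed to 265 in SW1736 wt and 4.505 in 8505C wt, with DCN and LUM at or below 0.0266. Of the 4 compared, COL1A1 and COL1A2, the chains of collagen I, were higher in SW1736 wt and made up most of the sum, COL3A1 (0.132 against 1.17) was higher in 8505C wt, and PDPN (6.81 against 2.99) did not differ past the limit. CDH5, the cadherin of vascular endothelium, had 0 in SW1736 wt and 55.9 in 8505C wt, and the endothelial receptor kinase TIE1 had 0 and 19.0. PECAM1 and VWF, which define endothelium with CDH5, had 0.0766 and 0 in 8505C wt. Summed over the 11 endothelial markers the FPKM was 0.310 in SW1736 wt and 77.3 in 8505C wt, most of it from CDH5 and TIE1, and whether other cells added to this was not tested.

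Collagens were the matrix genes most tilted to SW1736 wt. Of 21 compared, 11 were higher in SW1736 wt (52.4%) and 5 in 8505C wt (23.8%), beside 9.92% and 7.73% over all genes. Their median log2 fold change was 1.87, beside 0.08 over all genes. The chains of collagen I, COL1A1 and COL1A2, had an FPKM of 153 and 104 in SW1736 wt and 0.217 and 0 in 8505C wt. COL12A1, which decorates collagen I fibrils, had 69.6 and 8.76, and COL5A1, which nucleates them, had 41.7 and 11.2. COL7A1, the anchoring fibril collagen of the epidermis, had 11.2 against 0.0972. Collagen VI was divided by chain. COL6A3 had 18.8 in SW1736 wt and 0.00579 in 8505C wt, whereas COL6A1 had 2.91 and 21.0 and COL6A2 had 0 and 16.7. Neither wt library thus had all these chains, which assemble together in the protein. The basement membrane chains COL4A1 (20.1 against 27.6) and COL4A2 (106 against 61.0) did not differ past the limit. The other pair of collagen IV chains, COL4A5 (0.0247 against 8.58) and COL4A6 (0 against 8.12), which lie next to each other on chromosome X, was higher in 8505C wt.

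Adhesive glycoproteins and laminins showed the same exchange of members. Fibronectin (FN1) had an FPKM of 1133 in SW1736 wt and 91.7 in 8505C wt, a 12.3-fold difference. EFEMP1, an elastic fibre protein, had 449.9 and 8.03, and the proteoglycan versican (VCAN) had 36.8 and 0.902. Tenascin-C (TNC), a matrix protein of wounds and tumours, was higher in 8505C wt with 33.7 against 2.40. The fibrillin FBN2 was listed at 0 in SW1736 wt and had 26.4 in 8505C wt. THBS1 (299 against 155) and SPARC (194 against 156) were abundant in both and did not differ past the limit. Among the laminins, the alpha chains differed while the shared beta and gamma chains did not. LAMA5 had 0.430 in SW1736 wt and 68.2 in 8505C wt and LAMA1 had 0.212 and 9.61, while LAMA4 (32.9 against 9.13) and LAMA3 (3.85 against 0.592) were higher in SW1736 wt. LAMB1 was at 61.7 and 64.8, and LAMC1 at 52.1 and 67.8. LAMB3, a beta chain of the epithelial laminin with LAMA3, had 52.8 in SW1736 wt and 4.74 in 8505C wt. Of the basement membrane proteins, NTN4 had 1.67 and 40.5, and SMOC1 had 0 and 27.0.

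Proteases and adhesion receptors also differed by member. The collagenase MMP1 was listed at 0 in SW1736 wt and had an FPKM of 2629.6 in 8505C wt, where it stood above GAPDH (2592). The neighbouring stromelysin MMP3 had 0 and 3.33. MMP14, a membrane-bound protease that activates MMP2, had 154 in SW1736 wt and 10.7 in 8505C wt, and MMP2 had 5.49 and 1.29. Of the inhibitors, TIMP3 had 0.297 in SW1736 wt and 10.0 in 8505C wt, and TIMP1 had 389 and 143, below the limit. The plasminogen activator PLAU was higher in 8505C wt, at 201 against 59.8, and its receptor PLAUR was at 58.6 in SW1736 wt and 60.4 in 8505C wt. The protease inhibitor SERPINE2 had 18.5 and 148. The crosslinking transglutaminase TGM2 had 404 in SW1736 wt and 78.6 in 8505C wt. Of 16 integrins, 4 were higher in SW1736 wt, among them ITGB8 (9.40 against 0.0980) and ITGB3 (4.84 against 0.609), and 2 were higher in 8505C wt, ITGA1 (0.516 against 7.59) and ITGA4 (0 against 2.16). Together they were 37.5% of the integrins compared, beside 17.6% over all genes. The common beta chain ITGB1 had 347 and 212.

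**Figure D4:**
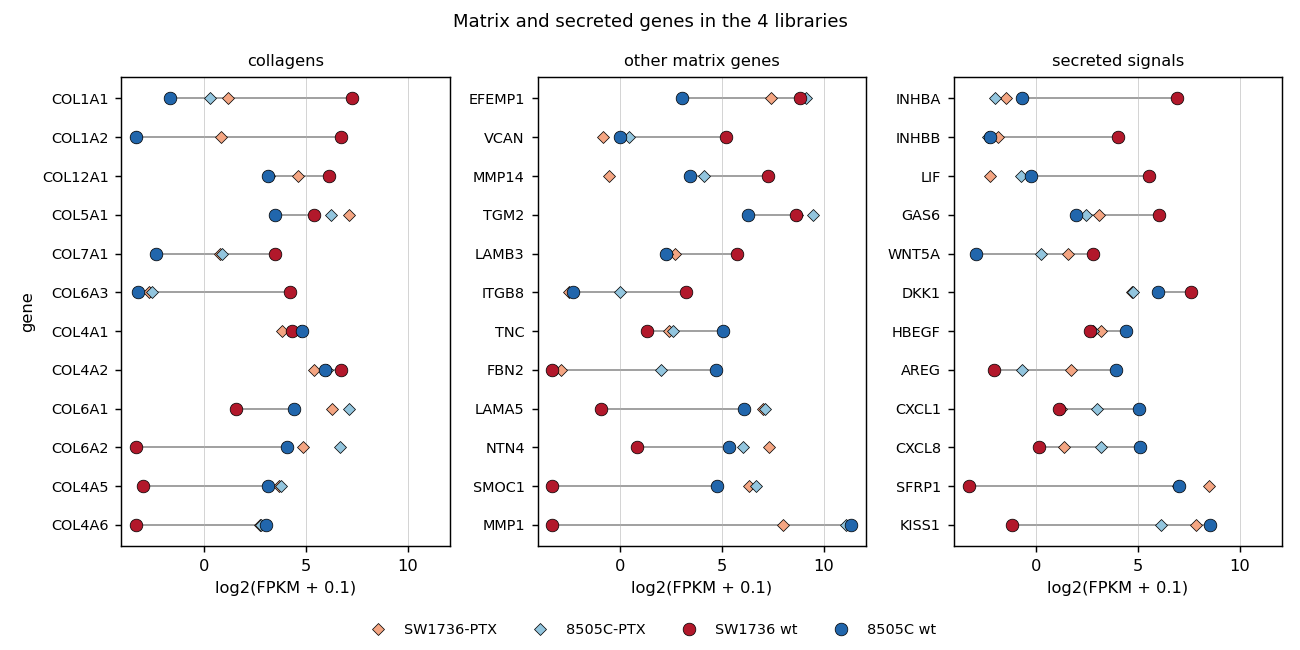
Points give log2(FPKM + 0.1) in each of the 4 libraries for collagens, other matrix genes and secreted signals, circles for wt and diamonds for PTX, with a grey line joining the wt libraries. COL1A1, COL1A2, INHBA and LIF lie far right in SW1736 wt alone, MMP1 and SFRP1 sit at the lower end in SW1736 wt alone, and COL4A1 and COL4A2 are close together in the wt libraries.

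In signalling, EGFR and ERBB2 did not differ past the limit, while the 6 ligands of the ERBB list that were compared did. EGFR had an FPKM of 51.0 in SW1736 wt and 28.1 in 8505C wt, and ERBB2 had 17.0 and 21.4. Of the EGFR ligands, amphiregulin (AREG, 0.134 against 15.1), epigen (EPGN, 0.0910 against 2.10), epiregulin (EREG, 0.393 against 2.00) and HBEGF (6.20 against 21.0) were higher in 8505C wt. TGFA (2.47 against 0.308), the neuregulin NRG1 (17.9 against 5.64) and the receptor ERBB3 (2.12 against 0.367) were higher in SW1736 wt. The receptor AXL was at 312 and 276, and its ligand GAS6 had 66.1 in SW1736 wt and 3.76 in 8505C wt. FGFR2 had 13.7 in SW1736 wt and 0 in 8505C wt, whereas FGFR3 had 0.0127 and 3.39. FLT1, a VEGF receptor, had 0 and 15.6, and IGFBP2, which binds insulin-like growth factors, had 0.00601 and 21.8. Ligands of other receptors, among them PDGFA (2.81 against 7.41) and VEGFA (17.6 against 13.4), did not differ past the limit. Each of the lists of ERBB genes and of other receptor kinases thus held members on both sides, 3 and 4 of 10 for the first and 8 and 8 of 42 for the second, for SW1736 wt and 8505C wt. The shares that differed were 70.0% and 38.1%, beside 17.6% over all genes.

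Genes at the output of the MAPK cascade leaned to 8505C wt, with 6 of 27 higher there and 1 in SW1736 wt. These were 22.2% and 3.7%, beside 7.73% and 9.92% over all genes. The phosphatases DUSP1 (10.2 against 206), DUSP5 (11.2 against 55.1) and DUSP6 (5.72 against 17.4), which switch off MAP kinases, were among the 6, with EGR1 (1.15 against 8.01), FOS and SPRED2. The direct ERK targets and feedback genes DUSP4 (10.2 against 10.5), ETV4 (24.3 against 44.7), ETV5 (35.5 against 28.8), SPRY2 (23.1 against 14.5), SPRY4 (5.16 against 10.5) and FOSL1 (423 against 229) did not differ past the limit. The median of the list was -0.03 on the log2 scale, beside 0.08 over all genes.

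Activin subunits and LIF were among the signals higher in SW1736 wt. INHBA, the subunit of activin A, had an FPKM of 121 in SW1736 wt and 0.515 in 8505C wt, and INHBB had 16.2 and 0.105. Their antagonist follistatin (FST) was also higher in SW1736 wt, with 15.4 against 2.15. TGFBR3, a co-receptor that binds inhibin and TGF-beta, went the other way with 0.472 and 16.1, as did the secreted FSTL1 with 87.4 and 415. LIF, a cytokine of the interleukin-6 family, had 47.1 in SW1736 wt and 0.741 in 8505C wt, and its receptor LIFR had 2.08 and 13.6. The chemokines CXCL8 (1.02 against 34.7), CXCL1 (2.06 against 32.7) and CCL2 (0.360 against 4.53), which draw in neutrophils and monocytes, were higher in 8505C wt. Of 52 cytokines, chemokines and receptors, 12 were higher in SW1736 wt and 15 in 8505C wt, 51.9% in all beside 17.6% over all genes.

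Of 30 Wnt genes compared, 7 were higher in SW1736 wt (23.3%) and 5 in 8505C wt (16.7%), beside 9.92% and 7.73% over all genes. WNT5A had an FPKM of 6.86 in SW1736 wt and 0.0297 in 8505C wt, and the receptor FZD7 had 18.5 and 1.41. The antagonists were exchanged. DKK1, which blocks the co-receptor, had 193 in SW1736 wt and 62.2 in 8505C wt, whereas SFRP1, which binds the ligand, was listed at 0 in SW1736 wt and had 127 in 8505C wt. Among Notch ligands, DLL1 had 1.88 and 0, and DLL3 had 0 and 2.14. NF2, the merlin tumour suppressor upstream of the Hippo kinases, had 53.1 in SW1736 wt and 6.28 in 8505C wt, with 2.62 in SW1736-PTX and 7.61 in 8505C-PTX. The YAP target ANKRD1 had 6.86 and 41.9, while the YAP targets CTGF (266 against 504) and CYR61 (306 against 377) did not differ past the limit.

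Most HLA class I genes did not differ, and HLA-DRA and CIITA of class II were at or near 0. B2M, the light chain of class I molecules, had an FPKM of 365 in SW1736 wt and 383 in 8505C wt, and of 17 class I genes only HLA-G (0 against 1.24) and HLA-F (0 against 0.908) differed, both higher in 8505C wt. That was 11.8% of the class I genes, beside 17.6% over all genes. HLA-DRA was listed at 0 in both, and CIITA, the class II transactivator, had 0.0233 and 0. CD74, the class II invariant chain, had 1.35 in SW1736 wt and 0.0545 in 8505C wt. It was the 1 gene that differed of 5 compared on the class II list of 16, and HLA-DOB had 1.12 and 0.604. Of 40 interferon-stimulated genes, 3 were higher in SW1736 wt, among them OAS2 (5.44 against 0.0587), and 7 in 8505C wt. The shares were 7.5% and 17.5%, beside 9.92% and 7.73% over all genes. IFITM2 had 0.714 and 380.5, IFITM1 had 11.3 and 72.0, and IFITM3 had 213 and 445. These are near-identical copies, so their separate levels are uncertain, and their summed FPKM was 225.3 in SW1736 wt and 897 in 8505C wt, a 3.98-fold difference. The cell-cycle inhibitors CDKN1A (8.16 against 13) and CDKN2A (143 against 63.2) did not differ past the limit, and CDKN2B was higher in SW1736 wt with 7.36 against 1.13.

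Metabolic genes had the lowest share of differences of these themes, 19.6% beside 17.6% over all genes. None of the 78 nuclear respiratory chain genes compared differed, their log2 fold changes lying between -1.40 and 1.04. Of 30 glycolytic genes, 13.3% differed and 26 did not, GAPDH being at 2769 and 2592. The exceptions included the glucose transporter SLC2A1, with an FPKM of 69.2 in SW1736 wt and 23.4 in 8505C wt, and the lactate dehydrogenase subunit LDHB, with 156 and 554. Hypoxia-responsive genes went both ways, the carbonic anhydrase CA12 (4.51 against 0.294) being higher in SW1736 wt and NDRG1 (4.09 against 44.0) and ADM (1.57 against 29.9) in 8505C wt. In amino acid metabolism, ASS1, the arginine synthesis enzyme, had 0.411 in SW1736 wt and 7.09 in 8505C wt, and its partner ASL had 24 and 6.34. In lipid metabolism, the cholesterol exporter ABCA1 had 6.90 in SW1736 wt and 0.00583 in 8505C wt, and G0S2, an inhibitor of lipolysis, had 110.1 and 5.82. The sterol synthesis enzymes SQLE (8.16 against 40.7) and HMGCS1 (6.13 against 25.0), the fatty acid carrier FABP5 (25.3 against 199) and the nuclear receptor PPARG (1.24 against 10.4) were higher in 8505C wt.

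Redox and metal-binding genes tilted to SW1736 wt. Of 44 genes of the NRF2 and glutathione list, 11 were higher in SW1736 wt (25.0%) and 3 in 8505C wt (6.82%). The shares over all genes were 9.92% and 7.73%. AKR1B1, an aldose reductase, had an FPKM of 296 in SW1736 wt and 53.8 in 8505C wt. MGST1, a membrane-bound glutathione transferase, had 93.9 and 20.4. The classical NRF2 target TXNRD1 (354 against 231) did not differ past the limit, and the glutathione transferases of the GSTM family were exchanged, GSTM4 having 4.07 and 0 and GSTM3 having 0 and 13.4. Among the aldehyde dehydrogenases, ALDH1A3 had 47.1 in SW1736 wt and 1.86 in 8505C wt, whereas ALDH1A1 had 0 and 1.83. Of 8 genes compared in the metallothionein list, which includes the regulator MTF1, 6 were higher in SW1736 wt and 1 in 8505C wt. MT2A had 1957 in SW1736 wt and 331 in 8505C wt, MT1X had 57.2 and 18.7, and MT1A, with 0 and 1.15, was the one higher in 8505C wt. MTF1, the factor that induces the others, had 4.06 and 3.11. The MT1 and MT2 genes are close copies, and their summed FPKM was 2499.8 in SW1736 wt and 351 in 8505C wt, a 7.12-fold difference.

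The drug genes were a broad list of tubulins and microtubule proteins, of drug efflux, uptake and cytochrome P450 genes, and of the BCL2 family. The list was not limited to genes that act on paclitaxel. Of 51 compared, 38 did not differ before selection, 9 were higher in SW1736 wt and 4 in 8505C wt. The share that differed was 25.5%, beside 17.6% over all genes. Of 21 tubulins and microtubule proteins, 19.0% differed, near the share over all genes. The 17 that did not differ included the main alpha-tubulin TUBA1B (1318 against 1334), TUBB (805 against 529) and TUBB3 (122 against 53.4). TUBB2B had an FPKM of 0 in SW1736 wt and 19.1 in 8505C wt, and TUBA4A had 75 and 5.32. TUBB2B has a near-identical copy, which makes its level uncertain. The drug exporter ABCB1 was listed at 0 in SW1736 wt and had 0.363 in 8505C wt, below the FPKM minimum, so it was not compared. In the PTX libraries it had 302 in SW1736-PTX and 497 in 8505C-PTX. The exporter ABCC1 was at 14.6 in both wt libraries. CYP1B1, a cytochrome P450, had 10.4 in SW1736 wt and 0.0796 in 8505C wt. In the BCL2 family, BCL2L1 (85.1 against 64.8) and MCL1 (49.9 against 83.9) did not differ past the limit, and the BH3-only genes BBC3 (2.47 against 0.673) and BMF (1.04 against 0.115) were higher in SW1736 wt.

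With an FPKM of at least 10 in 1 wt library and at most 0.1 in the other, 43 genes were detected in SW1736 wt alone and 60 in 8505C wt alone. The most abundant in SW1736 wt were MT1E, KRT19, CRIP1, COL1A2, TMEM200A and MT1L. The most abundant in 8505C wt were MMP1, ESM1, EPB41L3, SFRP1, SLC43A3 and CDH5. CRIP1, a LIM domain protein, had 121 in SW1736 wt and 0 in 8505C wt, with 0.206 in SW1736-PTX and 0.279 in 8505C-PTX. EPB41L3, which links the membrane to the actin skeleton, had 0 in SW1736 wt and 175 in 8505C wt, with 112 and 117 in the PTX libraries. These examples stand for their sets. Of the 43 genes detected in SW1736 wt alone, 10 were above an FPKM of 1 in SW1736-PTX and 6 in 8505C-PTX. Of the 60 detected in 8505C wt alone, 54 and 58 were.

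Fewer genes differed between the PTX libraries. The library labelled SW1736-PTX stood with the 8505C libraries for most of the genes detected in 1 wt line. Whether its cells came from SW1736 was not tested, so the counts here compare libraries by their labels. Between SW1736-PTX and 8505C-PTX, 1090 of 13986 genes differed (7.79%), 572 higher in SW1736-PTX (4.09%) and 518 higher in 8505C-PTX (3.7%). Of the 1335 genes higher in SW1736 wt, 123 (9.21%) were also higher in SW1736-PTX and 83 were higher in 8505C-PTX. Of the 1040 higher in 8505C wt, 104 (10.0%) were also higher in 8505C-PTX and 66 were higher in SW1736-PTX. Among those that kept their direction were KRT14, with an FPKM of 0.170 in SW1736-PTX and 12.2 in 8505C-PTX, and CDH5, with 0.225 and 4.53. MMP1 also kept it, with 254 in SW1736-PTX and 2173 in 8505C-PTX.

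The differing genes were spread unevenly over the genome. The median log2 fold change by chromosome ran from -0.60 on chromosome 4 and -0.57 on chromosome 8 to 0.71 on chromosome 10 and 0.81 on chromosome X, beside 0.08 over all genes. On chromosome 4, 15% of 441 genes were higher in 8505C wt and 4.99% in SW1736 wt. On chromosome 10, 14.6% of 528 were higher in SW1736 wt and 5.3% in 8505C wt. DNA copy number was not measured, and its part in these shifts was not tested.

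In places, neighbours differed together. Of 13287 windows of 8 consecutive genes, 57 had 6 or more genes higher in the same line. They formed 17 separate runs, 9 toward SW1736 wt and 8 toward 8505C wt. The search was set up after the data were seen, and the counts within a run follow from it. Over all genes, 9.92% were higher in SW1736 wt and 7.73% in 8505C wt. On chromosome 14, in hg38 between 36135710 and 37595120, 9 of 11 genes were higher in 8505C wt, with NKX2-1 and its neighbours SFTA3 (0 against 17.6), NKX2-8 (0 against 2.52) and PAX9 (0.289 against 2.61). On chromosome 15, between 24823647 and 25122476, all 11 genes compared were listed at 0 in SW1736 wt, with SNURF at 19.0 in 8505C wt. This is the imprinted domain of SNRPN and the SNORD116 host transcripts, where genes overlap and share reads. On chromosome 16 the metallothionein cluster (56608566 to 56684196) had 6 of 7 genes higher in SW1736 wt. Farther along, between 67029147 and 67169945, CBFB, C16orf70, B3GNT9 and TRADD had 23.1, 7.84, 13 and 11.5 in SW1736 wt and were all listed at 0 in 8505C wt. On chromosome 4, between 73436219 and 75050115, 8 of 10 genes were higher in 8505C wt, and this stretch holds the chemokines CXCL8 and CXCL1 together with AREG, EREG and EPGN. On chromosome X, MAGEA3, MAGEA2, MAGEA12 and the CSAG genes made up a run of 6, all higher in 8505C wt. Several MAGEA genes are near-identical copies that can share reads. Not all neighbours moved together. On chromosome 7, COL1A2, SGCE (30.2 against 0) and PEG10 (59.9 against 0) lie near CASD1 (3.12 against 2.95) and PON2 (29.6 against 27.9), which did not differ past the limit.

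**Figure D5:**
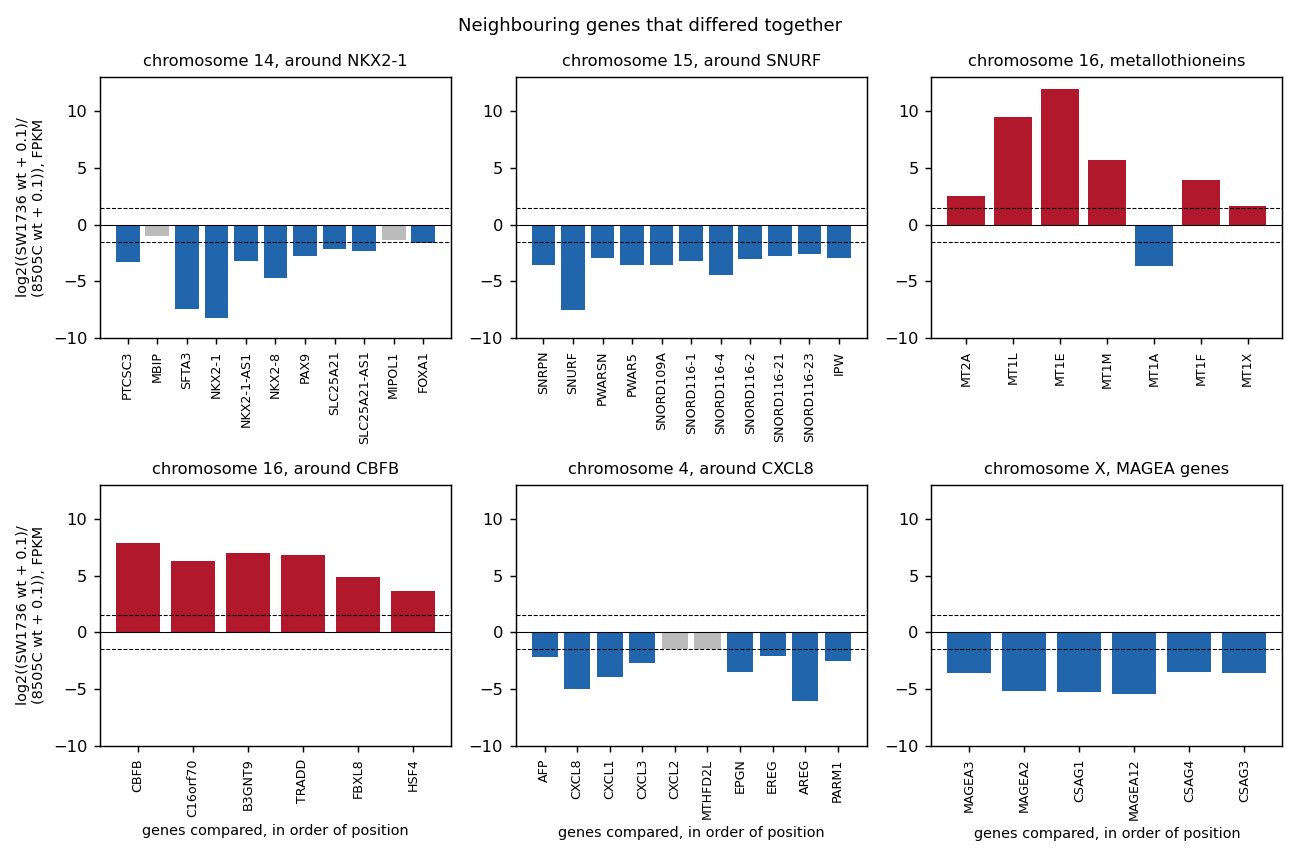
Bars give the log2 fold change of SW1736 wt over 8505C wt (FPKM + 0.1) for the genes compared in 6 of the 17 runs, in order of position, red for higher in SW1736 wt, blue for higher in 8505C wt and grey for neither, with dashed lines at the limit of 1.5. All bars point down around SNURF, all point up around CBFB, and MT1A alone points down among the metallothioneins.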

How the data were processed

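One mRNA library (single-end reads of 75 bp) was made for each of 4 cultures, and libraries were assigned to lines and treatments from the sample labels. Per the labels and the methods of the study, the authors called bases with bcl2fastq 2.20, removed adapters and bases of low quality, mapped to hg38 by means of STAR, and ran StringTie on the alignments. The deposited coverage column gives reads per base of a gene, with no scaling for depth. The deposited FPKM column divides this by the aligned total of the library. The deposited TPM column rescales it so that libraries sum alike. The tables give no read counts per gene, and a count model was not used.

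FPKM of rows with the same name were summed, and names above 0.5 in at least 1 of the wt libraries were compared with a pseudocount of 0.1 and a log2 limit of 1.5. Genes detected in 1 line had an FPKM of at least 10 in it and at most 0.1 in the other. Reads per library were estimated from the highest quotient of coverage and FPKM. The members and gene lists were chosen with earlier results of these data known. The genes named were the 10 largest differences each way, the defining genes of each list, up to 6 members per list past the limit, abundant members that did not differ, the 6 most abundant genes detected in each line alone, and ABCB1. CBFB and the other genes named for their position or as companions of a named gene were chosen after their values were seen. Some genes of the lists are not reported here by name. Alternatives changed the pseudocount, the FPKM minimum, the unit, the centring, the rows used and the limit. The limits were also run on simulated libraries with counting error only, which cannot show how they perform with spread between cultures. Promoter sequences came from RefSeq on GRCh38.p14, and those of all genes from hg38. The software was Python 3.11.15 with NumPy 2.4.6, pandas 2.3.3 and, for figures, matplotlib 3.10.9.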

Additional observations from a re-analysis of the deposited data

Results flagged for a closer look

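In the PTX pair, 83 of the genes higher in SW1736 wt and 66 of those higher in 8505C wt differed the opposite way. SFRP1, KISS1 and LCE2A, given here, are of the second kind. Some genes named above reversed from the SW1736 wt side (MMP14 with 0.589 in SW1736-PTX and 17.3 in 8505C-PTX, LAMA4 with 0.387 and 31.0). Each value is from 1 library per condition, so that the differences were not tested. Whether the cells of the library labelled SW1736-PTX came from SW1736 was not tested either. SFRP1 was listed at 0 in SW1736 wt and had an FPKM of 127 in 8505C wt, but had 353 in SW1736-PTX and 125 in 8505C-PTX, a log2 fold change of 1.50 between the PTX libraries. KISS1 had 0.340 in SW1736 wt and 366 in 8505C wt, but 227 in SW1736-PTX and 68.8 in 8505C-PTX, a log2 fold change of 1.72. LCE2A, a protein of the epidermal cornified envelope, was listed at 0 in SW1736 wt and had 48.2 in 8505C wt, but had 60.8 in SW1736-PTX and 6.01 in 8505C-PTX, a log2 fold change of 3.32.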

How the results depend on the processing

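No paired analysis was possible because each condition has 1 library, and for the same reason no replicate could be left out and no spread between cultures is known. Counts moved by over 1.5 times as follows. With a pseudocount of 1 in place of 0.1, the genes higher in SW1736 wt numbered 639 and in 8505C wt 544. By theme, lineage genes higher in 8505C wt then numbered 22, signalling genes 30 and 33, and drug genes 4 and 2, for SW1736 wt and 8505C wt. With an FPKM above 0.5 required in both wt libraries, which removes the genes detected in 1 line, the counts were 567 and 329 over all genes, 15 and 8 for lineage, 24 and 9 for matrix, 26 and 24 for signalling, and 3 and 0 for drug genes, and 21 metabolic genes were higher in SW1736 wt. Drug genes higher in 8505C wt numbered 7 with any FPKM above 0 and 8 with TPM. A log2 limit of 1 gave 2257 and 1579 over all genes, 81 signalling genes higher in SW1736 wt and 30 metabolic genes higher in 8505C wt. The share of differing genes that were higher in SW1736 wt was 56.2%, and lay between 52.6% and 63.3% over the alternatives. The median of the HOX genes turned from -1.62 to 0.56 when both libraries had to pass 0.5, and that of the melanocyte markers from -1.70 to 0.25 with any FPKM above 0. Of 340 list members and leading genes past the limit, 104 fell below it with a pseudocount of 1, as low levels weigh less then. Under the 5 alternatives that could be run gene by gene, 0 changed sign. A new pseudocount cannot change a sign, and centring shifts each gene by 0.08 only, so that 0 is no measure of robustness. Differences that rest on an FPKM near the floor of 3 reads are limited by depth.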
